A study of Mus musculus with 24 samples.

Results

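The genes described here belong to the circadian clock of the liver and, in rodent liver, peak in the phase of the Per genes and of Dbp. They are Per1, Per2, Per3 and Cry2 (repressors of the clock), Nr1d1 and Nr1d2 (the nuclear receptors REV-ERB alpha and beta), Dbp, Tef and Hlf (the PAR bZIP transcription factors) and Bhlhe41 (DEC2, a repressor). They were taken by name, as the probes whose gene name on the array is exactly one of these 10. All 10 genes had a probe, 23 of the 56605 probes of the array. Of these 23 probes, 18 passed the filter on dim probes, out of 30003 in the whole series, and they covered 9 of the 10 genes. Neither of the 2 probes of Bhlhe41 passed. Where a gene had several probes, its brightest one is described, and the others are given by their range.

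Each of the 24 Agilent 1-colour arrays held RNA from the liver of 1 male mouse of the strain labelled C57Bl6J. The HFoleic group (HFD_Cont, 8 arrays) came from the lineage given high-oleic sunflower oil and was fed a high-fat, high-sucrose diet. The HFepa group (HFD_O3, 7 arrays) had that same diet but came from the lineage given fish oil rich in eicosapentaenoic acid (EPA). The reference group (STD_Cont, 9 arrays) was of the oleic lineage and received the low-fat diet, which no mouse of the EPA lineage did. All mice were of the third generation of their lineage. They were kept on a light-dark cycle and killed while fasting, but the clock time of killing and the age at killing of each mouse are not given in the sources used here. The order of killing is not given either, so diet, lineage and hour of killing cannot be told apart where they run together.

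In the hepatic clock, the activator pair BMAL1 (encoded by Arntl) and CLOCK binds E-box motifs and drives Per, Cry, Nr1d and PAR bZIP genes. PER and CRY proteins then inhibit that pair, and REV-ERB proteins repress Arntl through RORE motifs, so that transcripts of Arntl run nearly opposite to those of Dbp over the day. PAR bZIP proteins bind D-box motifs and pass the rhythm on to genes of drug, bile acid and lipid metabolism, and Per1 is in addition acutely induced by glucocorticoids and by cyclic AMP through CREB.

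The letters upstream of the starts of these genes are shown first. RefSeq promoter windows (build GRCm38.p6) were at hand for 9 of the 10 genes, Per2 being the one without, as 11 windows of 250 bases before an annotated transcript start. The stretches below hold every match found for Per1, Tef, Nr1d1, Cry2 and Per3, read 5′ to 3′ on the strand of the gene, with the matched motif in capitals. They are the E-box CACGTG in Per1 (plus strand, chr11:69098763-69098808) and before both starts of Tef (plus strand, chr15:81802526-81802571 and chr15:81811256-81811301), the E′-box CACGTT, read here on the opposite strand as AACGTG, in Nr1d1 (minus strand, chr11:98775380-98775425) and Cry2 (minus strand, chr2:92434210-92434255), and a pair of D-boxes of the form TTATGTAA in Per3 (minus strand, chr4:151044796-151044890).
Per1: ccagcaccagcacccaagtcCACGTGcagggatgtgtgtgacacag
Tef, first start: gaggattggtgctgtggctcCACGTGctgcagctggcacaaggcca
Tef, second start: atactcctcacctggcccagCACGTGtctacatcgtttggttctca
Nr1d1: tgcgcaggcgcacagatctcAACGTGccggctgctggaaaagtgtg
Cry2: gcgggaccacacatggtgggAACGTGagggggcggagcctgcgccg
Per3: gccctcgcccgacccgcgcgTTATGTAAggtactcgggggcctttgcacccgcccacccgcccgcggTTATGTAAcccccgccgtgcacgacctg

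Both strands were searched. The E-box lay in 4 of the 11 windows (Per1, Bhlhe41 and both of Tef) against 6.02% of all 32851 windows of the promoter table. The E′-box lay in 2 of the 11 (3.85% of all windows), the D-box (TTATGTAA or TTACGTAA) in 1 of the 11 (0.931%) and the CRE motif TGACGTCA in 1, that of Hlf (1.55%). The RORE letters TAGGTCA were in 0 of the 11 (2.23% of all windows). Counted from the start of the transcript, the match lay 166 bases upstream in Per1 and Cry2, 28 in Nr1d1, 127 and 138 in Tef, and 205 and 158 in Per3. The motifs do not share letters with each other in these windows. The windows of Dbp and Nr1d2, and the second of the 2 windows of Per1 (chr11:69099902-69100151), held none of these letters. This says only that they are not in these 250 bases. These matches are descriptions of letters and were not tested for binding.

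Set against the reference, HFoleic livers had higher mean signal for 8 of the 9 measured genes and lower signal for Per1. Nr1d2 was the only one of the 9 that passed the test, with a log2 change of 0.58 and with all 8 HFoleic mice above the reference mean. The other differences were as large or larger for Dbp, Per2 and Nr1d1 (3.02-, 1.84- and 1.74-fold), but the spread among mice was larger too. In HFepa livers 7 of the 9 genes were higher than in the reference and none passed. Between HFepa and HFoleic, 7 of the 9 were lower in HFepa and none passed. Tests were limma fits over all 30003 probes with Benjamini-Hochberg adjustment, called at an adjusted p under 0.05. They called 7.23% of all probes in HFoleic against reference, 0.393% in HFepa against reference and 0% in HFepa against HFoleic, and 1 called gene of 9 is a count too small to set apart from that background. By direction, 4.05% of probes were called higher and 3.19% lower in the first of these, and 0.19% and 0.203% in the second. At an unadjusted p under 0.05, 5 of the 9 genes were higher and 1 lower in HFoleic against reference, where 21.1% of all probes passed (11.6% higher and 9.53% lower). In HFepa against reference 3 of the 9 were higher, where 13.5% passed (7.07% higher and 6.39% lower), and in HFepa against HFoleic 0 of 9, where 9.7% passed (4.24% higher and 5.46% lower). The median change over the 9 genes was 0.54 (log2) in HFoleic against reference, 0.32 in HFepa against reference and -0.25 in HFepa against HFoleic, where the median over all probes was 0.00 in each. Both comparisons with the reference share its 9 mice.

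**Figure D1:**
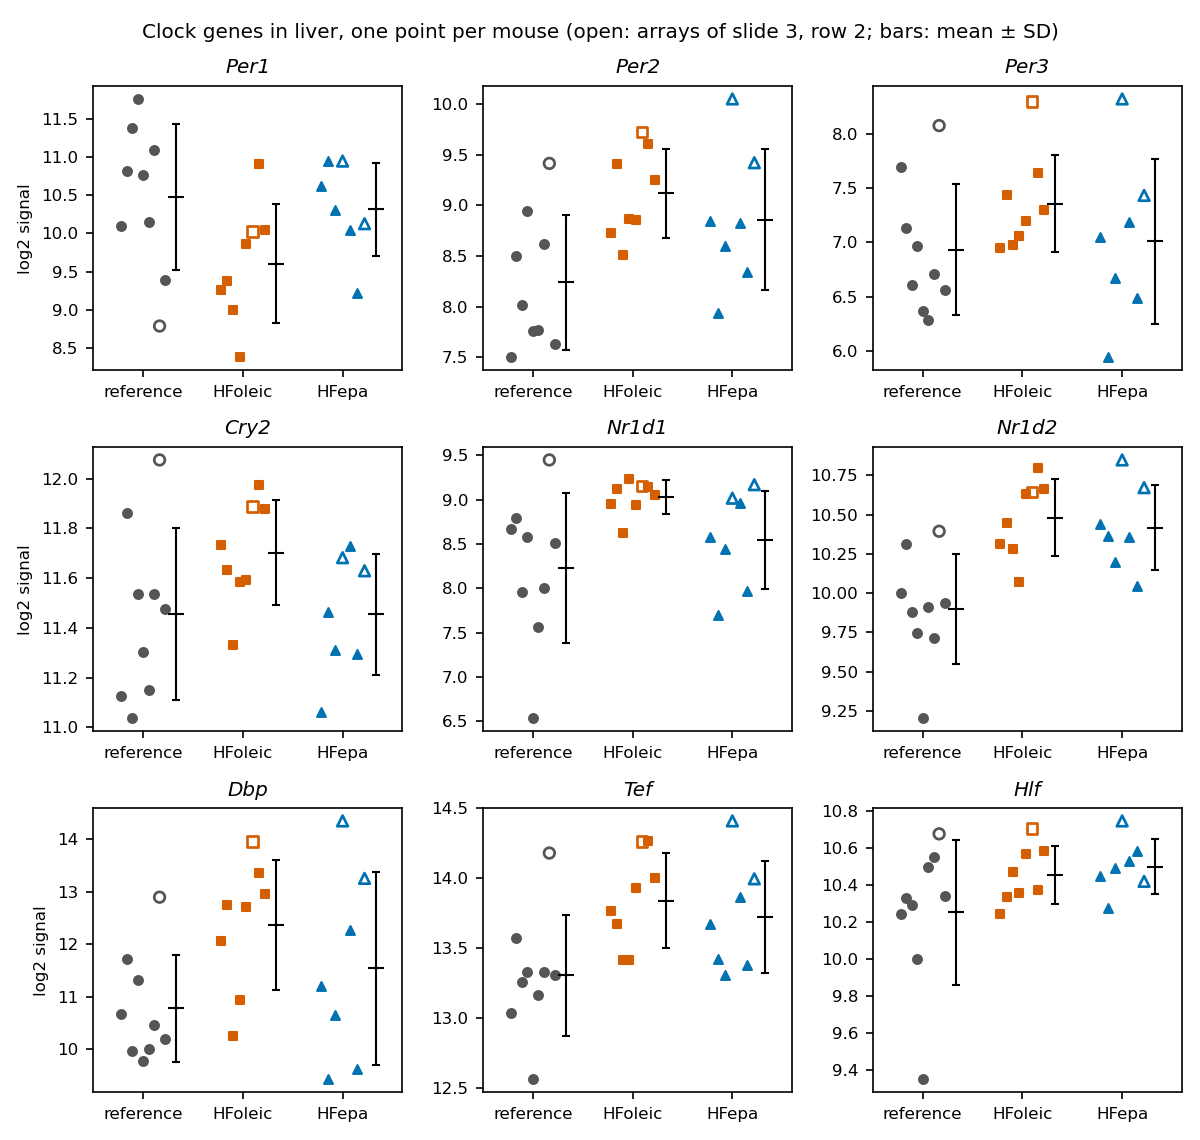
Log2 signal (quantile normalized, vertical axis of each panel) of the 9 measured genes in reference (circles, 9 mice), HFoleic (squares, 8) and HFepa (triangles, 7). Each point is a mouse, the bars are mean ± SD, and open symbols are the 4 arrays in row 2 of slide 3. HFoleic mice lie in a narrow band for Nr1d1, and the open symbols are the highest or nearly the highest points of their groups in most panels. For Per1 the open symbol of the reference is the lowest of its group, whereas HFepa mouse 4, also an open symbol, is the highest of its group.

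Among the repressors, Per2, whose protein inhibits BMAL1 and CLOCK, read 7.50, 8.02 and 9.41 on the log2 scale as lowest, median and highest of the 9 reference mice, 8.51, 9.06 and 9.72 in HFoleic and 7.94, 8.82 and 10.05 in HFepa. All 8 HFoleic mice lay above the reference mean, yet only 2 lay above every reference mouse. The log2 change was 0.88 (95% interval 0.31 to 1.45, limma adjusted p = 0.0531) in HFoleic and 0.62 (0.03 to 1.21, adjusted p = 0.343) in HFepa. The order of the group means was HFoleic, HFepa, reference, with overlapping ranges throughout.

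Per1, the member that responds to glucocorticoids and cyclic AMP, was the exception in direction. It read 8.79, 10.76 and 11.76 in the reference, 8.38, 9.61 and 10.91 in HFoleic and 9.22, 10.31 and 10.94 in HFepa. Of the 8 HFoleic mice, 7 lay below the reference mean, while the reference itself spanned a 7.83-fold range. The log2 change was -0.86 (-1.62 to -0.11, limma adjusted p = 0.163) in HFoleic and -0.16 (adjusted p = 0.913) in HFepa, and HFepa stood 0.71 above HFoleic (adjusted p = 0.574). Reference mouse 8, the highest of its group for the other 8 genes, was the lowest for Per1. Without it the change in HFoleic was -1.07 with an adjusted p of 0.0422.

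Per3 and Cry2 differed less. Per3 read 6.29, 6.71 and 8.07 in the reference, 6.95, 7.25 and 8.29 in HFoleic and 5.94, 7.05 and 8.32 in HFepa. Its change was 0.42 in HFoleic (limma adjusted p = 0.413) and 0.08 in HFepa, where the mice ranged from below to above every reference mouse. Its second probe gave 0.49 and 0.37. For Cry2, which encodes the partner of PER in repression, the reference read 11.04, 11.48 and 12.08, HFoleic 11.33, 11.68 and 11.97 and HFepa 11.06, 11.47 and 11.73. HFoleic was 0.25 above the reference (adjusted p = 0.280), and HFepa differed from it by 0.00 (-0.28 to 0.27). The 3 tested probes of Cry2 gave -0.08 to 0.25 in HFoleic, with 2 of 3 higher.

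The REV-ERB genes held the only call. Nr1d2 read 9.20, 9.91 and 10.39 in the reference, 10.07, 10.54 and 10.80 in HFoleic and 10.04, 10.37 and 10.85 in HFepa. Of the 8 HFoleic mice, 5 lay above every reference mouse. Nr1d2 rose by 0.58 (0.30 to 0.86, limma adjusted p = 0.0100) in HFoleic, and all 3 of its probes were called, with changes of 0.51 to 0.58. The brightest of them lies at chr14:19036568-19036627 in the mm9 coordinates of the array. In HFepa all 7 mice lay above the reference mean and the change was 0.52 (0.23 to 0.81), but the adjusted p was 0.0968. The difference between HFepa and HFoleic was -0.06 (-0.36 to 0.24). The call in HFoleic held without each of the 24 mice in turn (0.49 to 0.64) and the difference was 0.50 to 0.70 within each of the 3 slides. In bulk liver, a change in the number of cells of a type and a change in RNA per cell cannot be told apart.

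Nr1d1 differed between groups in its spread as well as its level. It read 6.53, 8.51 and 9.45 in the reference, 8.62, 9.08 and 9.24 in HFoleic and 7.70, 8.58 and 9.17 in HFepa. All 8 HFoleic mice lay above the reference mean but none above the highest reference mouse. The SD was 0.84 in the reference (n = 9), 0.19 in HFoleic (n = 8) and 0.55 in HFepa (n = 7), and these SDs were not tested against each other. The change was 0.80 (0.23 to 1.37, limma adjusted p = 0.0800) in HFoleic and 0.32 (adjusted p = 0.694) in HFepa. Reference mouse 5 had the lowest Nr1d1, and also the lowest Nr1d2, Dbp, Tef and Hlf, of its group, and without it the change of Nr1d1 in HFoleic was 0.59. Without reference mouse 8, the highest, it was 0.95 and was called (adjusted p = 0.0185).

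Dbp, the founding PAR bZIP factor and a direct target of BMAL1, had the widest range. It read 9.77, 10.46 and 12.90 in the reference, 10.25, 12.73 and 13.96 in HFoleic and 9.42, 11.20 and 14.35 in HFepa. The span from the lowest to the highest mouse was 8.71-fold, 13.1-fold and 30.6-fold in these groups. The change was 1.60 (0.32 to 2.87, limma adjusted p = 0.125) in HFoleic, where 7 of 8 mice lay above the reference mean and 3 above every reference mouse. In HFepa it was 0.76 (-0.56 to 2.09, adjusted p = 0.669), with 2 mice above and 2 below every reference mouse, and without HFepa mouse 4 it was 0.30. A second Dbp probe gave 1.41 and 0.65. The brightest Dbp probe lies at chr7:52965265-52965324 (mm9).

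Tef, which binds the same D-box as Dbp, read 12.56, 13.31 and 14.18 in the reference, 13.41, 13.85 and 14.27 in HFoleic and 13.31, 13.68 and 14.41 in HFepa. All 8 HFoleic and all 7 HFepa mice lay above the reference mean, and the ranges overlapped. Its change was 0.54 (0.17 to 0.91, limma adjusted p = 0.0706) in HFoleic and 0.42 (0.03 to 0.80, adjusted p = 0.323) in HFepa, and its 4 probes gave 0.40 to 0.59 in HFoleic. Hlf, the PAR bZIP gene with the smallest spread, read 9.35, 10.33 and 10.68 in the reference, 10.24, 10.42 and 10.71 in HFoleic and 10.27, 10.49 and 10.75 in HFepa. The changes were 0.20 (adjusted p = 0.383) and 0.25 (adjusted p = 0.425), and without reference mouse 5 they were 0.09 and 0.13.

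Bhlhe41 was near the background. One of its 2 probes was well above background on 5 of the 24 arrays (2 HFoleic and 3 HFepa) and the other on none, so no change is given. Its paralogue Bhlhe40 (DEC1), also driven through E-boxes, rose in HFoleic by 0.75 (limma adjusted p = 0.0265), a call kept in 20 of 24 fits without a single mouse, and stood 0.21 above the reference in HFepa (adjusted p = 0.740).

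**Figure D2:**
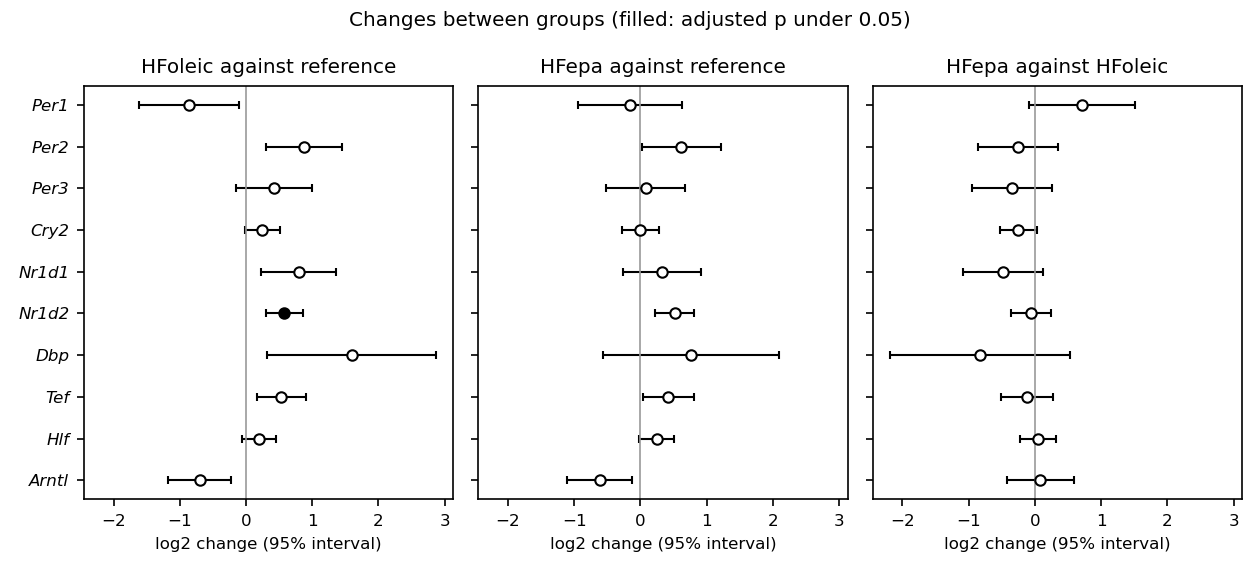
Log2 change (horizontal axis) with its 95% interval for the 9 measured genes and Arntl in the 3 comparisons, from the limma fit. The filled point, Nr1d2 in HFoleic against reference, is the only one with an adjusted p under 0.05, and Per1 and Arntl are the 2 genes on the lower side in both comparisons with the reference, beside Cry2 in HFepa at 0.00.

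Where the array lay on its slide moved with these values. The 24 arrays were on 3 slides of 8, in 2 rows of 4, and each slide held mice of all 3 groups. Row 2 of slide 1 and row 1 of slide 3 held no HFepa array, so those positions give no direct comparison with HFepa. Row 2 of slide 3 held reference mouse 8, HFoleic mouse 6 and HFepa mice 4 and 7. Their Dbp signals were 12.90, 13.96, 14.35 and 13.26, the highest of each group and, in HFepa, also the next highest. Over the 9 genes and 3 groups there are 27 highest values, and 20 of them came from these 4 arrays. Dbp, Per2, Per3 and Hlf had their highest mouse there in all 3 groups. Arntl had its lowest mouse there in all 3 groups. These arrays had 50.9% to 53.5% of probes well above background, against 50.9% to 60.8% over all arrays. Over the 3 slides, outlier spots numbered 134 to 191 per array in row 1 and 350 to 627 in row 2. Of the 27 lowest values of a gene in a group, 12 came from row 2 of slide 1 (2 reference and 2 HFoleic arrays). Reference mouse 5 and HFoleic mouse 3, each the lowest of its group for 5 of the 9 genes, were at that position. Fits without the 4 arrays of slide 3, row 2, keep the arrays of slide 1, row 2. The labels do not say how mice were placed on the slides, and the part of hybridization, of handling and of the mice themselves in this was not tested.

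**Figure D3:**
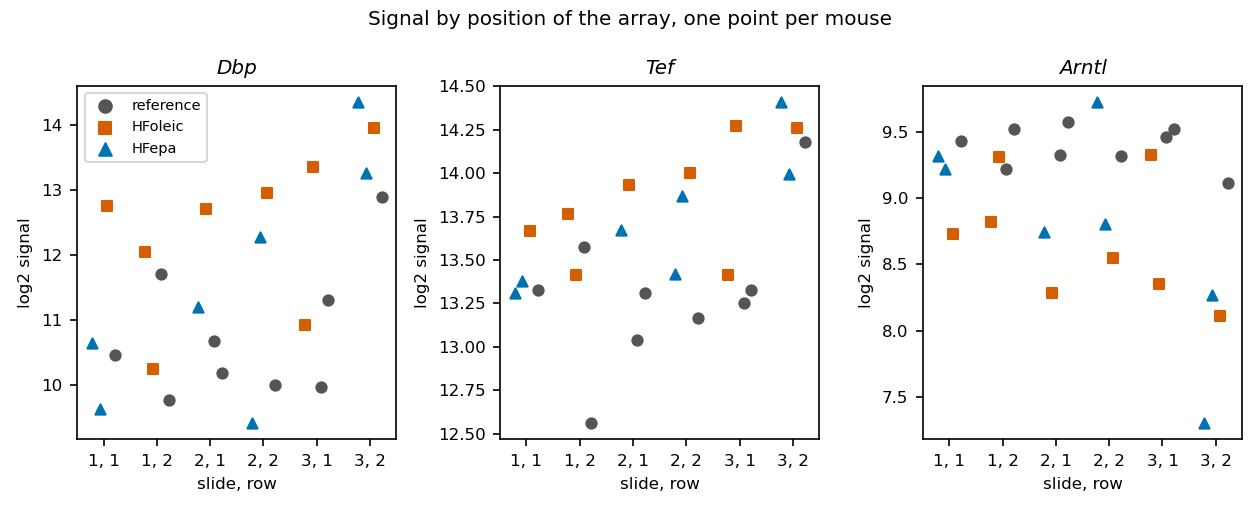
Log2 signal (vertical axis) of Dbp, Tef and Arntl for each mouse by slide and row of its array (horizontal axis), with circles for reference, squares for HFoleic and triangles for HFepa. The 4 arrays at slide 3, row 2 lie between 12.90 and 14.35 for Dbp, and the HFoleic mice lie above the reference mice of the same position for Dbp, except at slide 1, row 2 and slide 3, row 1, where they overlap.

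The calls were therefore computed with the position taken into account, a choice made after seeing the values. With slide and row together as a block, 4 of the 9 genes were called, among 2176 of all 30003 probes. These were Nr1d2, Per2 (limma adjusted p = 0.0127), Tef (adjusted p = 0.0219) and Dbp (1.59, adjusted p = 0.0433). Without the 4 arrays, 5 were called (among 2894 of all probes), the same 4 and Nr1d1, with Dbp at 1.63 (adjusted p = 0.0305). With the slide alone as a block, as planned, 3 were called (Nr1d2, Per2 and Tef), and with the row alone 1. The change of each of these genes in HFoleic stayed near its size, between 0.52 and 0.59 for Tef and 1.56 and 1.63 for Dbp. Against the same reference, the change of Dbp in HFepa was 0.28 with slide and row as a block and 0.12 without the 4 arrays. Between HFepa and HFoleic no gene was called in these fits, but the change of Dbp went from -0.83 to -1.31 with slide and row as a block and to -1.51 without the 4 arrays. At an unadjusted p under 0.05, 3 of the 9 genes passed there with slide and row as a block (Cry2, Dbp and Per3, lower in HFepa), and 5 without the 4 arrays (these and Nr1d1 and Per2, lower), against 0 with all arrays and no block. The fit on the arrays of these 2 groups alone gave 3 (Cry2 and Nr1d1 lower and Per1 higher in HFepa). Shares of all probes passing in these fits are not given here, so nothing particular to the genes is read from the counts. Within slides 1, 2 and 3 the difference between HFoleic and reference means was 1.04, 2.54 and 1.36 for Dbp, 0.58, 1.42 and 0.60 for Per2, 0.46, 0.80 and 0.39 for Tef and 1.12, 0.75 and 0.51 for Nr1d1. For Per1 it was -1.68, 0.07 and -0.87, so the direction did not hold on slide 2. Leaving out reference mouse 8 alone also gave 5 calls (among 3090 of all probes), Nr1d1, Nr1d2, Per2 and Tef higher and Per1 lower, with Dbp at an adjusted p of 0.0521. None of the 9 was called in HFepa against reference in any of the position fits, and Nr1d2 was called without reference mouse 8 (adjusted p = 0.0324).

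The spread among mice of a group was itself large. Within groups, the SD of the 9 genes had a median percentile of 98.1 among all tested probes. It was 1.37 log2 units for Dbp (percentile 99.9), 0.81 for Per1 (99.3) and 0.61 for each of Per2, Per3 and Nr1d1 (98.1 to 98.2), where the median SD over all probes was 0.18. Cry2 and Hlf were nearer to the rest, at percentiles of 80.4 and 78.5. Arntl had an SD of 0.15 in the reference (percentile 32.1), 0.45 in HFoleic and 0.80 in HFepa. The SDs are descriptions and were not tested between groups.

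After subtraction of the group means, 8 of the 9 genes varied together over the 24 mice. Their 28 pairs had Pearson correlations of 0.28 to 0.88, with a median of 0.69. The closest pairs were Nr1d2 with Tef and Dbp with Tef (both 0.88), and the loosest was Cry2 with Hlf. Over the 24 mice Per1 had correlations of -0.22 to 0.22 with the others, but these values changed with position. With slide and row means also subtracted it reached 0.44 with Dbp and 0.41 with Per2, and without the 4 arrays of slide 3, row 2, it reached 0.58 with Per2 and 0.46 with each of Dbp and Tef. With Hlf and Nr1d1 it stayed below 0 in all of these. Per log2 unit of Dbp, Per2 and Per3 moved by 0.39 each, Nr1d1 by 0.31, Tef by 0.25, Nr1d2 by 0.16, Cry2 by 0.14 and Hlf by 0.07. The 28 pairs without Per1 ran, with slide and row means also subtracted, from 0.09 to 0.85 (median 0.59), and without the 4 arrays, from 0.04 to 0.83 (median 0.53). These mice share slides and a normalization, and the correlations are given with no test.

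**Figure D4:**
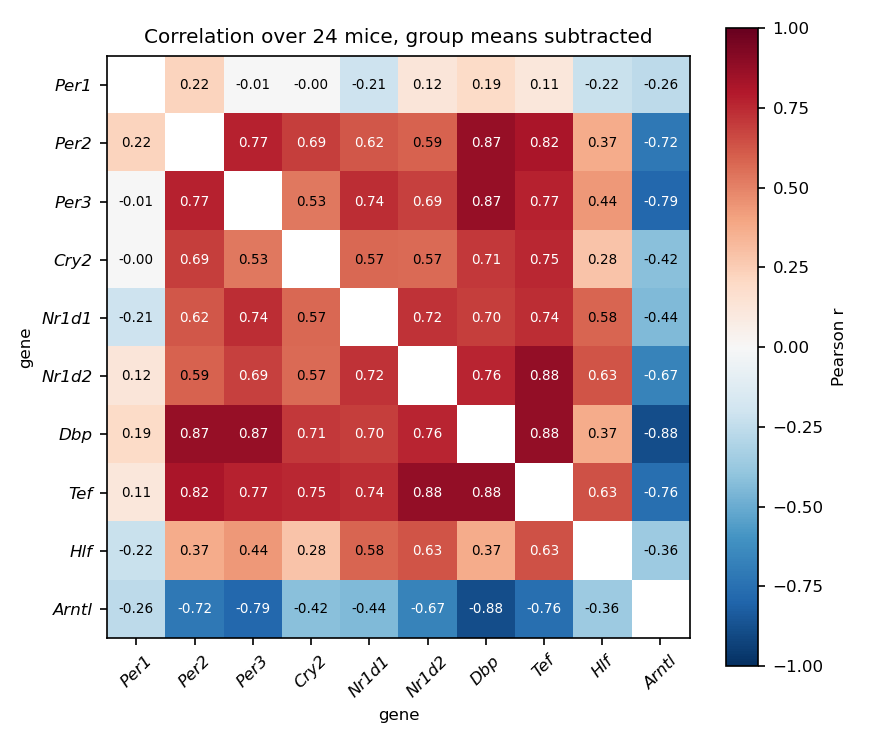
Pearson correlation (colour scale from -1 to 1, printed in each cell) between the 9 measured genes and Arntl over the 24 mice, group means subtracted. Rows and columns are genes. All genes but Per1 form a block of positive values of 0.28 to 0.88, the row of Per1 lies between -0.26 and 0.22, and the row of Arntl is negative throughout.

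Arntl, the activator gene of the opposite phase, varied the opposite way, more closely with some members than with others. It read 9.11, 9.43 and 9.58 in the reference, 8.11, 8.64 and 9.32 in HFoleic and 7.30, 8.81 and 9.72 in HFepa. HFoleic was lower by -0.70 (-1.18 to -0.22, limma adjusted p = 0.0663) and HFepa by -0.62 (adjusted p = 0.246). Its 2 other probes gave -0.41 and -0.32 in HFoleic. With slide and row as a block the change in HFoleic was -0.71 (adjusted p = 0.0242). After subtraction of group means, Arntl correlated over the 24 mice at -0.88 with Dbp, -0.79 with Per3, -0.76 with Tef, -0.72 with Per2 and -0.67 with Nr1d2, and less with Nr1d1 (-0.44), Cry2 (-0.42), Hlf (-0.36) and Per1 (-0.26). With slide and row means also subtracted, Dbp stayed at -0.78, Per2 was at -0.63, Per1 at -0.56, Per3 and Tef at -0.54 and Nr1d2 at -0.44, whereas Cry2 (-0.20), Hlf (-0.13) and Nr1d1 (-0.10) were near 0. Without the 4 arrays, the members other than Per1 ran from -0.82 for Dbp to -0.24 for Hlf.

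Within each group, 12 relations were tested by exact two-sided permutation with Benjamini-Hochberg adjustment over the 12, and 8 passed. Dbp and Arntl gave r = -0.73 in the reference (rho = -0.62, n = 9, exact permutation p = 0.0215, adjusted p = 0.0368 for r and 0.147 for rho). They gave r = -0.95 in HFoleic (rho = -0.83, n = 8, exact permutation p = 0.000769, adjusted p = 0.00308) and r = -0.94 in HFepa (rho = -0.93, n = 7, exact permutation p = 0.00119, adjusted p = 0.00357). Dbp and Per2 gave r = 0.82, 0.87 and 0.97 in these groups, with exact permutation adjusted p of 0.0130, 0.00851 and 0.00308. By rank, rho was 0.57, 0.90 and 0.96, with exact permutation adjusted p of 0.159, 0.0183 and 0.0167, so the relation in the reference did not pass. Per2 and Arntl passed in HFepa only (r = -0.98), as did Nr1d1 and Arntl (r = -0.80), and differences between groups in r were not tested. Without the 2 mice farthest from the median of Dbp, r for Dbp and Arntl was 0.02 in the reference, so that relation rests on those mice, and -0.82 in both HFoleic and HFepa. No relation passed after such a removal, when 5 to 7 mice are left. A group had at most 3 mice on a slide, too few for a value within slides. The permutation treats the mice of a group as exchangeable and takes no account of slide or row. Row 2 of slide 3 held the highest Dbp, the highest Per2 and the lowest Arntl of each group, so position is not separated from these relations.

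**Figure D5:**
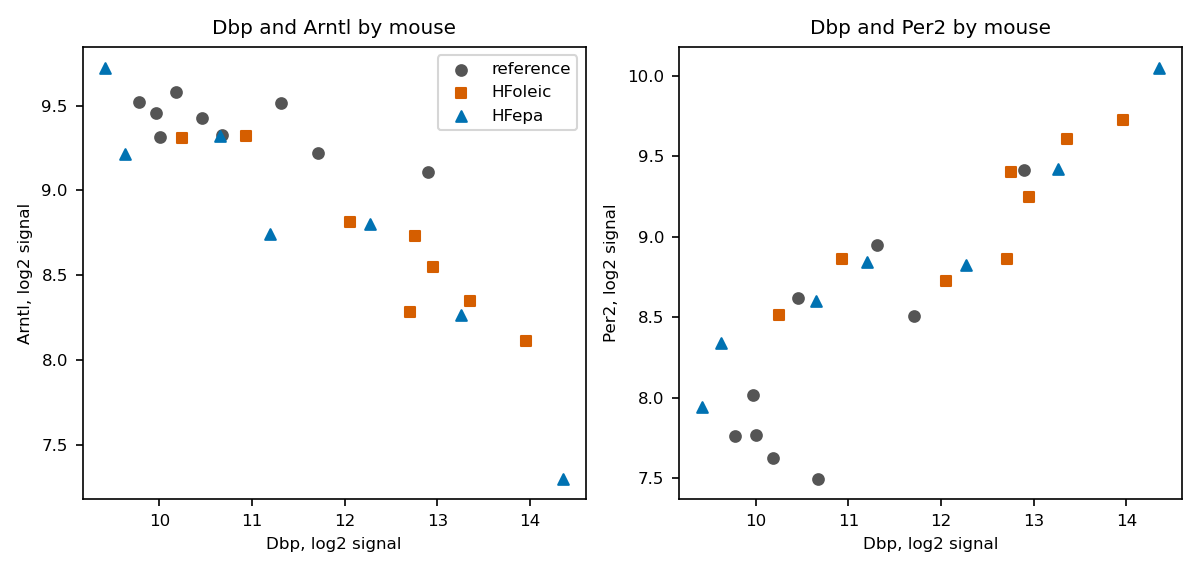
Log2 signal of Arntl (left panel) and Per2 (right panel) on the vertical axes against Dbp on the horizontal axes, one point per mouse, with circles for reference, squares for HFoleic and triangles for HFepa. Within HFoleic and HFepa the mice with high Dbp have low Arntl, whereas the reference mice stay between 9.11 and 9.58 for Arntl.

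Of 5 other measured clock outputs driven through E-boxes, 1 (Bhlhe40) was called in HFoleic against reference, where 7.23% of all probes were. In that comparison 4 of 5 were higher. In HFepa all 5 were higher than in the reference and 0 were called. Ciart did not pass the filter.

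Genes known as targets of the members were read next. Of 9 liver targets of PAR bZIP factors, 2 were called in HFoleic, both lower. As the share over all probes was 7.23% (3.19% lower), nothing particular to this or the next lists is read from such counts. Cyp7a1, the rate-limiting enzyme of bile acid synthesis, fell by 1.61 on the log2 scale (limma adjusted p = 0.00821), and Por, the electron donor of microsomal P450 enzymes, fell by 0.67 (adjusted p = 0.000253). The median of the 9 was 0.16, with Cyp2b10, named after its value was seen, at 2.19 (adjusted p = 0.121). Of 5 REV-ERB targets, 4 were lower in HFoleic and 1 was called, Insig2, which retains SREBP in the endoplasmic reticulum (-0.55, adjusted p = 0.00638). No target on either list was called in HFepa against reference, and Insig2 stood at -0.53 (adjusted p = 0.0543).

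Acute inputs to Per1 were also read. Of 6 CREB responsive genes, 2 were called in HFoleic (7.23% of all probes), both lower, the gluconeogenic enzyme gene Pck1 (-0.74) and its coactivator Ppargc1a (-0.54), the latter kept in 18 of 24 fits without a single mouse. Of 6 glucocorticoid responsive genes, 2 were called in HFoleic, both lower, Tat (-0.63), an enzyme of tyrosine breakdown, and Fkbp5 (-0.50, kept in 17 of 24), a cochaperone of the glucocorticoid receptor. Of 7 heat-shock and cold-inducible genes, 3 were called in HFoleic, with the chaperone gene Hsph1 higher (0.60) and Cirbp (-0.84) and Rbm3 (-0.77), which encode cold-inducible RNA-binding proteins, lower. In HFepa against reference 2 of these 7 were called, where 0.393% of all probes were. They were Hsph1 (0.71, kept in 17 of 24) and Dnajb1 (0.74, kept in 18), and none of the CREB or glucocorticoid genes was called. The median change of the 6 CREB genes was nevertheless -0.39 in HFepa and -0.38 in HFoleic. In each, 3 of the 6 were lower at an unadjusted limma p under 0.05. At that threshold 6.39% of all probes were lower in HFepa and 9.53% in HFoleic. For the 6 glucocorticoid genes the median was -0.14 in HFepa, with 2 lower at that threshold, and -0.22 in HFoleic, with 3 lower. The part of these inputs in the values of Per1 was not tested.

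Of the 7 hepatocyte markers, all were measured, and their mean log2 signal lay between 16.80 and 17.09 in every mouse. Quantile normalization gives all arrays the same distribution of signals, so this narrow range is not read as a measure of hepatocyte content. Cps1 (-0.89) was called lower in HFoleic, where 3 of the 7 were higher and 4 lower, with a median change of -0.002. Among markers of other cells, Lrat of stellate cells was called higher (0.56) and Sox9 of bile ducts lower (-0.65, kept in 22 of 24) in HFoleic, and none of the 4 Kupffer, 4 endothelial, 4 blood or 2 measured adipocyte markers was called. All 4 Kupffer markers had higher means in HFoleic (0.16 to 0.19) and in HFepa (0.21 to 0.28) than in the reference. Ranges of mean marker signal in reference, HFoleic and HFepa were 10.43 to 11.47, 10.72 to 11.72 and 10.91 to 11.76 for Kupffer cells. For endothelial cells they were 9.66 to 10.14, 9.55 to 10.27 and 9.89 to 10.33. The reference reached higher for bile ducts (6.36 to 8.07, against 6.38 to 6.75 and 6.55 to 6.96). It also did for stellate cells (9.42 to 10.35, against 9.40 to 9.88 and 9.52 to 9.90). The pancreatic markers Prss1, Cpa1 and Pnlip and the muscle markers Ckm and Acta1 did not pass the filter. Cela1, the pancreatic marker that did pass, had a mean of 12.38 in the reference (11.70 to 13.07), 12.88 in HFoleic (11.83 to 13.75) and 12.45 in HFepa (11.75 to 12.71), a change of 0.50 in HFoleic (limma adjusted p = 0.188). The part of any of these markers in the members' values was not tested.

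By likeness to the mean profile of the members over the 24 mice (group means subtracted, 15173 genes compared), the 8 nearest genes were Sun3 (r = 0.84), Eif4a2 (0.81), Slc12a7 (0.81), Nr3c2 (0.80), Gm15411 (0.80), Mn1 (0.80), Wee1 (0.79) and Pex26 (0.78). Nr3c2 encodes the mineralocorticoid receptor, Slc12a7 a potassium-chloride cotransporter, Eif4a2 a translation initiation helicase, Wee1 a kinase that delays mitosis and Pex26 a peroxisome protein. The 4 most opposite were Abtb2 (-0.84), Tubb2a (-0.82), Lrrc58 (-0.81) and Irs2 (-0.81), the last an adaptor of the insulin receptor. In HFoleic against reference Sun3 (0.47), Slc12a7 (0.29) and Mn1 (0.37) were called higher and Abtb2 (-0.91) and Irs2 (-1.16) lower, and Abtb2 was also called lower in HFepa (-0.84). In all, 60 genes had r above 0.7 and 48 had r below -0.7, and among the listed clock genes Arntl stood at -0.78, Cry1 at -0.71 and the repressor Nfil3 at -0.66. These values describe mice that share slides, and are given with no test.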

How the data were processed

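RNA of 24 livers was measured on Agilent 1-colour arrays. The authors deposited the scanner text files (Agilent Feature Extraction 10.10.1.1), in which median and mean signals are intensity values without normalization and the processed signal is an intensity corrected for background by the software, per the file headers. They also deposited a log2 table, filtered and quantile normalized, with 32176 probes and 2550 empty cells, and each column followed the scanner's own log2 signal for that array closely (lowest r = 0.9997). Its filter is not given in the sources used here. The flags of the scanner software, 0 or 1 per spot, were read as deposited.

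For each probe, the log2 of the median signal was averaged over its spots after removal of outlier spots (134 to 627 per array). The filter, set here because the study's own was not given, asked that a probe be flagged above background in 75% or more of the mice of some group. Quantile normalization followed, as in the methods of the study. No spot was saturated, and the number of arrays limits the precision. Groups and replicate numbers came from the labels, and slide and row from the array names. Every mouse is a separate animal in the labels.

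The 3 comparisons were fitted with limma 3.58.1 (lmFit, group means over all 24 arrays, eBayes, two-sided, Benjamini-Hochberg within a comparison). The brightest probe by mean signal stood for a gene. Correlations were computed in Python 3.11.15 with scipy 1.17.1, numpy 2.4.6 and pandas 2.3.3, array files were read in R 4.3.3 with the data.table package, version 1.17.8, and figures were drawn with matplotlib 3.10.9. The test was checked on simulated data. Promoter sequences are RefSeq's (GRCm38.p6), and probe coordinates are mm9 from the scanner files, with no annotation of that build used here. The members and all gene lists were chosen with earlier results of these data known. Counts over 2 lists of other clock genes are not reported here. Named genes were all members, Arntl, up to 4 called genes of each list by size of change, and the 8 nearest and 4 most opposite genes in profile. Alternatives were other signals, filters, blocks, fits and the methods' t-test, and leaving out each mouse.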

Additional observations from a re-analysis of the deposited data

How the results depend on the processing

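Under 15 other settings the call of Nr1d2 in HFoleic against reference held, and the number of the 9 genes above the reference stayed at 8. The number called there was 2 with the stricter filter and with the pairwise fit, 3 with the slide as a block, 4 with slide and row as a block, 5 without the 4 arrays of slide 3, row 2, and 4 without reference mice 5 and 8. The last 3 settings were chosen after seeing the data. In HFepa against reference it was 1 without those 2 reference mice. Leaving out each mouse gave 1 to 5 called genes in HFoleic against reference, 0 to 1 in HFepa against reference and 0 to 0 in HFepa against HFoleic. The counts of 5 and of 1 came without reference mouse 8.

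Over all probes, the 118 calls of HFepa against reference became 60 with the processed signal, 0 without a filter, 13 with the pairwise fit, 0 with the methods' t-test (4040 probes had an unadjusted p under 0.05 in limma), 1 with slide and row as a block and 371 without reference mice 5 and 8. HFepa against HFoleic had 0 calls in the limma fit of all arrays (2910 unadjusted), 2 with the stricter filter, 1 without the 4 arrays and 7 without the 2 reference mice. Leaving out each mouse gave 1600 to 3090, 0 to 497 and 0 to 15 calls in the 3 comparisons, and the highest first count, 3090, and the highest second, 497, came without reference mouse 8. The second count was 0 without HFepa mouse 2, HFepa mouse 6 or reference mouse 2, and the third was 15 without HFepa mouse 5. The cause was not tested.

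Changes near 0 turned in sign. For Cry2, HFepa against reference gave 0.0026 with the processed signal, 0.00035 as the mean of its probes, 0.011 with median centring, 0.010 with the slide as a block, 0.058 with the replicate block and 0.065 without the 2 reference mice, and -0.054 to 0.076 without single mice. For Fkbp5, HFepa against reference gave -0.0102 with the slide as a block, -0.11 with slide and row, -0.080 without the 2 reference mice and -0.055 to 0.094 without single mice. For Per1, HFepa against reference gave 0.030 with slide and row and -0.37 to 0.026 without single mice. For Per3, HFepa against reference gave -0.092 with slide and row, -0.13 without the 4 arrays and -0.14 to 0.26 without single mice. For Hlf, HFepa against HFoleic gave -0.14 with slide and row.

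The 8 correlations that passed became 0 without the 2 mice farthest from the median and 6 by Spearman's rho. Replicate numbers did not pair the mice (22 same-numbered pairs, r of -0.30 to 0.35, and 3 of 24 mice correlated best with their own number). With the replicate block there were 1747, 104 and 0 calls, and 1 member was called in HFoleic against reference, so the block changed no call of a member. Of the 8 nearest and 4 most opposite genes in profile, 8 and 4 were the same in the deposited table, and 6 and 1 when group means were kept.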
